A study of Xenopus laevis with 9 samples.

Results

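The lin28 genes and trim71 encode RNA-binding proteins of early embryonic cells. In Xenopus laevis, an allotetraploid frog, most genes have a copy on the L and another on the S subgenome, called homeologs. The members were every row of the count tables whose symbol, without the final .L or .S, was lin28a, lin28b or trim71. They were 5 of 51061 rows: lin28a.L (gene14646), lin28a.S (gene16), lin28b.L (gene8070), lin28b.S (gene40881) and trim71.S (gene316). The 3 genes were chosen from these same libraries with earlier results in view, among them the lower lin28a counts of the morphants. Their values are therefore given as a description, with no p-value. Where calls of a fit over all genes are counted for them, the counts are descriptive too and stand beside the share called over all genes. No row was named trim71.L, but LOC108718943 (gene35603) carried the provisional name trim71. It falls outside the rule, and its values are given beside trim71.S without being counted among the members.

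RNA was sequenced from animal pole explants, pieces of the pluripotent roof of the blastula, cut from embryos of wild-type genotype. The study asked how SoxB1 transcription factors act in the blastula and at the neural plate border (NPB), the ectoderm between neural plate and epidermis from which neural crest and placodes arise. There were 3 groups of 3 libraries, with RNA from pooled explants. St9 wild type was blastula explants at stage 9 with no treatment. St9 soxb1 morphant was explants of the same stage given soxb1 morpholinos, antisense oligonucleotides that block translation of sox2 and sox3 transcripts. St11.5 NPB was explants at stage 11.5, in gastrulation, labelled as given Wnt8a and Chordin mRNA, while the methods of the study also describe induction with small molecules. A control morpholino was not among the groups, so an effect of injection as such cannot be told apart from that of the soxb1 morpholinos. Between St9 wild type and St11.5 NPB, the stage, the induction and the count table differed together, and their parts cannot be told apart.

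Lin28 proteins carry a cold shock domain and zinc knuckles, and bind the precursors of the let-7 microRNAs and many messenger RNAs. In mammals, bound Lin28 keeps let-7 precursors from being processed, and Lin28a does so with terminal uridylyltransferases, which tag the precursor for decay by Dis3l2. let-7 in turn lowers lin28 and trim71 transcripts. Trim71 is a protein with a RING finger, a coiled coil and NHL repeats that binds RNA hairpins and lowers the transcripts of cell cycle inhibitors in mouse embryonic stem cells. lin28 genes and trim71 are known for high expression in pluripotent cells and decline during differentiation. None of the rows of the count tables named let-7 (0 rows), so the microRNA itself was not analysed here.

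The libraries held between 25796466 and 48839143 counts. A count of 3, used as the floor of detection, was worth between 0.0614 and 0.116 CPM, which is a count scaled by its library's total. Levels below are in CPM of the library total, which carries no length correction. Fold changes use totals scaled by TMM, and a call is an adjusted p of 0.05 or less in edgeR over all genes tested. The label of the NPB explants was checked with pax3, a border gene, which summed over L and S to between 0.674 and 2.67 CPM in wild type and between 296 and 747 CPM in NPB. The blastula gene pou5f3.3 stood at between 1381 and 1652 CPM in wild type and at between 9.62 and 49.1 CPM in NPB. Every member had counts above the floor in all 9 libraries and passed the filter on low counts in both comparisons.

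lin28a.L, the L copy of lin28a, was detected at 249, 212 and 139 counts in wild type, or 9.65, 7.52 and 4.44 CPM. In the morphants it had 25, 35 and 14 counts, or 0.821, 1.11 and 0.46 CPM. In NPB it had 5915, 6746 and 14645 counts, or 160, 225 and 300 CPM. The groups did not overlap, and lin28a.L was lowest in the morphants and highest in NPB. The 95% exact interval of the lowest value ran from 0.252 to 0.772 CPM, which lay under the lowest wild-type value. These are bulk libraries, in which fewer cells with a transcript and less of it per cell cannot be told apart.

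lin28a.S, the S copy, was detected at 12.2, 15.2 and 11.6 CPM in wild type and at 4.56, 6.25 and 1.68 CPM in the morphants. In NPB it stood at 77.6, 88.1 and 120 CPM. It kept the order of lin28a.L, with no overlap between groups. Summed over L and S, lin28a had between 16.1 and 22.7 CPM in wild type, between 2.14 and 7.36 CPM in the morphants and between 238 and 420 CPM in NPB.

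lin28b.L stood at 9.54, 11.4 and 13.1 CPM in wild type and at 12.9, 14.7 and 13.1 CPM in the morphants. Its NPB values were 11.1, 8.58 and 11.2 CPM. All 9 values of this paralog lay between 8.58 and 14.7 CPM, the narrowest range of the members. lin28b.S, the other copy of lin28b, stood at 21.3, 26.3 and 26.1 CPM in wild type and at 22.2, 31.3 and 26.5 CPM in the morphants. In NPB its values were 3.47, 4.84 and 7.19 CPM. The stage 9 groups overlapped for lin28b.S, and all NPB libraries lay below them.

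trim71.S was detected at 17.8, 23.9 and 25.1 CPM in wild type and at 13.2, 19.7 and 18.9 CPM in the morphants. In NPB it reached 145, 174 and 216 CPM. The stage 9 groups overlapped and the NPB libraries lay apart from both. The provisional trim71 row had the same order on a smaller scale. It stood at 10.4, 16.2 and 17.1 CPM in wild type, at 8.07, 14.9 and 15.0 CPM in the morphants and at 18.8, 31.0 and 28.7 CPM in NPB.

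**Figure D1:**
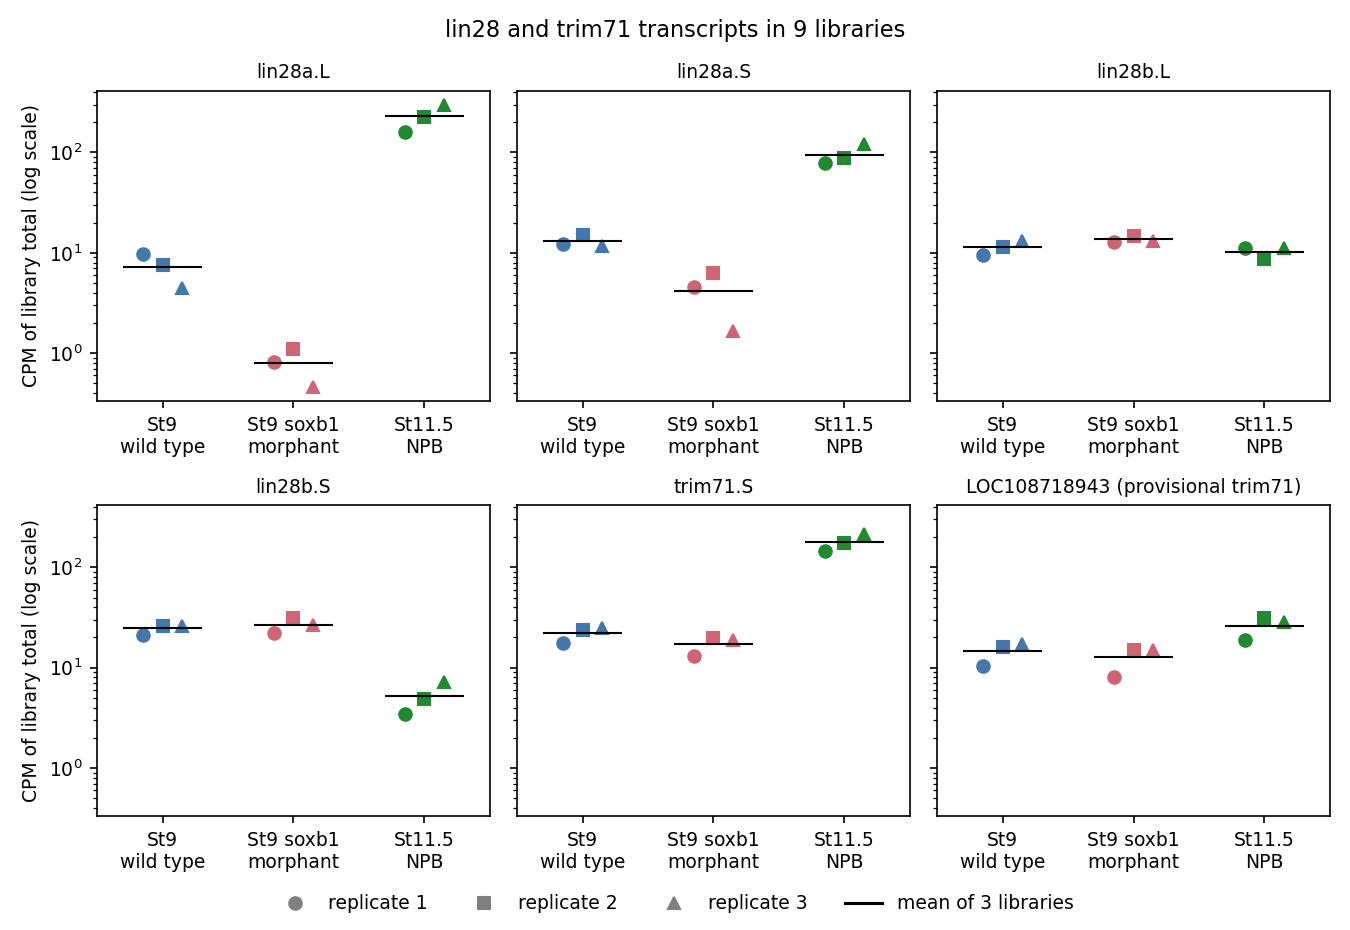
Level of each member and of the provisional trim71 row in CPM of the library total (log scale) in the 9 libraries, where points are libraries, shapes are replicate numbers and bars are means of 3 libraries. lin28a.L lies between 0.46 and 1.11 CPM in the morphants and between 160 and 300 CPM in NPB, while lin28b.L keeps between 8.58 and 14.7 CPM in all groups.

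To compare genes with each other, CPM was divided by the ratio of CPM to TPM of the same gene in the NPB libraries, the only ones with deposited TPM. The ratio was 2.02 for lin28a.L and 0.639 for lin28a.S, so equal CPM of the L and S copies did not stand for equal TPM. CPM came from HTSeq counts and TPM from RSEM, so the ratio may also hold differences in how shared reads were counted. It is called length scaling here, but does not isolate length. For lin28b.L it ran from 2.34 to 3.19 between the NPB libraries. On this length-scaled measure, lin28b.S (mean 21.2) and lin28a.S (20.3) were highest in wild type and overlapped. Apart from these lay the provisional trim71 row (4.70), lin28b.L (4.22), lin28a.L (3.58) and trim71.S (3.38), each of which overlapped with its neighbour. In the morphants lin28b.S (23.0) lay apart above lin28a.S (6.51), and lin28a.L (0.395) lay apart below all other rows. In NPB the order was lin28a.S (149), lin28a.L (113), trim71.S (27.0), the provisional row (8.45), lin28b.S (4.46) and lin28b.L (3.82). There lin28a.S was above lin28a.L in 3 of 3 libraries although their ranges overlapped, and trim71.S lay apart from its neighbours on both sides. The lowest 3 rows of that order overlapped from each to the next. The deposited TPM of the NPB libraries was 80.73, 111.5 and 146.99 for lin28a.L, 120.05, 138.55 and 189.1 for lin28a.S, and 20.27, 28.62 and 32.9 for trim71.S. The ratio of lin28b.L, with an SD of 0.442 around 2.69, was the least certain of the lin28 rows.

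The makeup of the lin28 counts differed between all 3 groups. Since the lower lin28a counts of the morphants were known when the genes were chosen, the lower lin28a share there is no separate result. lin28a took 41.4%, 37.6% and 29.1% of the counts of the 4 lin28 rows in wild type and 13.3%, 13.8% and 5.12% in the morphants. In NPB it took 94.2%, 95.9% and 95.8%. The 95% Wilson interval of the lowest morphant share ran from 4.04% to 6.47%, and intervals and floors cover counting error only, since PCR copies were not told from molecules. The groups did not overlap, and with length scaling the mean shares were 48.4%, 19.1% and 96.9%. By counts lin28b was the larger part at stage 9. Length-scaled, lin28a was the larger part in 2 of 3 wild-type libraries, at 52.1% and 50.5%, and the smaller in the third, at 42.6%.

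Within lin28a, the L copy held a mean of 35.0 ± 8.45% of the counts in wild type, 17.3 ± 3.70% in the morphants and 70.2 ± 2.47% in NPB (SD, n = 3 each). With length scaling these means were 14.8%, 6.24% and 42.9%, so lin28a.S held the larger part in every group on that measure. This order rests on ratios from the NPB libraries alone. By counts the share of lin28a.L was lowest in the morphants and highest in NPB, with no overlap. Length scaling divides each copy by a constant, so it keeps the order of the libraries and adds no support. The gap between morphants and wild type is uncertain. Morphant replicate 3 had 14 of 65 counts, or 21.5%, with a Wilson interval from 13.3% to 33.0%. That interval covers wild-type replicate 3, at 27.6%. Within lin28b, the L copy held from 30.3% to 36.9% of counts at stage 9 and from 60.9% to 76.2% in NPB. Length-scaled, lin28b.S had a mean of 4.46 in NPB and lin28b.L 3.82, and their ranges overlapped. The share of trim71.S in the counts of trim71.S and the provisional row was between 55.7% and 63.1% at stage 9 and between 84.9% and 88.5% in NPB. Length-scaled, the provisional row was ahead of trim71.S at stage 9. Its mean was 4.70 beside 3.38 in wild type and 4.09 beside 2.62 in the morphants. In NPB it was 8.45 beside 27.0. Reads that match both copies of a gene could have been split or dropped in the counting, so the shares of L and S are less certain than their sums.

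**Figure D2:**
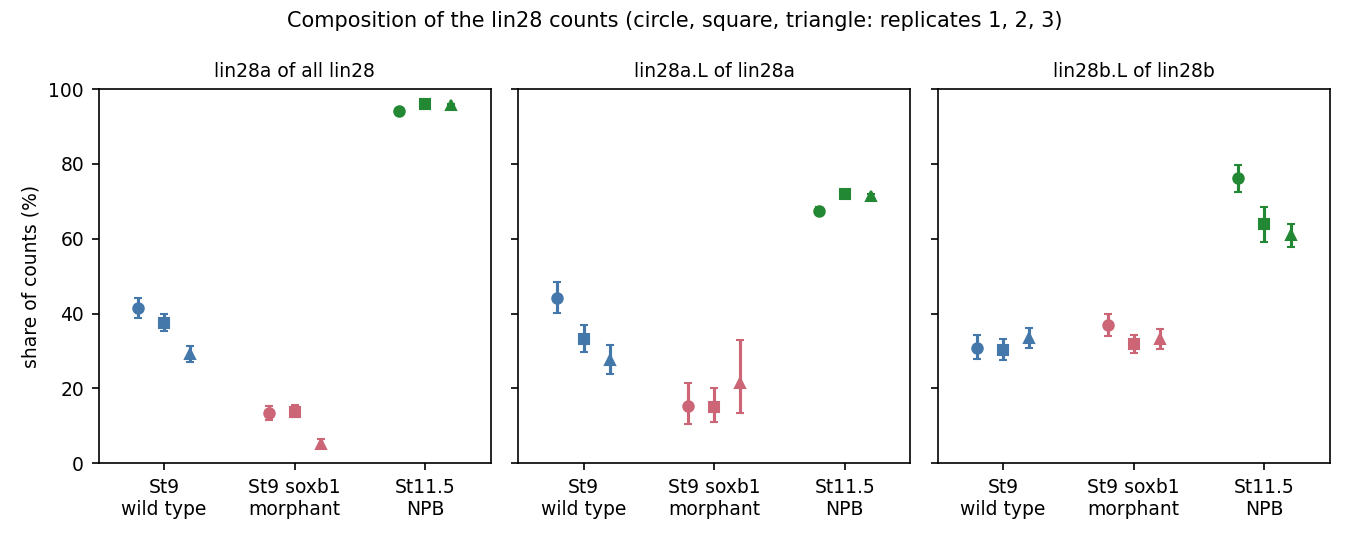
Share of counts in percent, in 9 libraries, of lin28a among all lin28 rows, of lin28a.L within lin28a and of lin28b.L within lin28b; points are libraries and bars are 95% Wilson intervals. lin28a takes between 5.12% and 13.8% of the lin28 counts in the morphants and between 94.2% and 95.9% in NPB.

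The comparison of morphants with wild type asked which blastula transcripts depend on SoxB1 factors. lin28a.L was lower by a log2 fold change of -3.18 (SE 0.47), or 9.07-fold, and lin28a.S by -1.65 (SE 0.45), or 3.13-fold. These values ranked 43rd and 177th from the lowest of 21659 genes tested. lin28b.L had 0.26 (SE 0.19) and lin28b.S 0.11 (SE 0.17), and trim71.S had -0.37 (SE 0.22). The provisional trim71 row had -0.21 (SE 0.30). The lower lin28a values were known when the genes were chosen. Those of lin28b and trim71.S lay between -0.37 and 0.26.

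Read library by library within a replicate number, lin28a.L was 11.7-fold, 6.91-fold and 9.63-fold lower in the morphant of pairs 1, 2 and 3. For lin28a.S these ratios were 2.65, 2.47 and 6.92. Both copies were lower in 3 of 3 pairs, and the S copy differed most in pair 3. trim71.S was lower in 3 of 3 pairs as well, by 1.34-fold, 1.23-fold and 1.33-fold. lin28b.L was higher by 1.37-fold, 1.27-fold and 1.01-fold, and lin28b.S by 1.05-fold, 1.17-fold and 1.01-fold. Libraries of the same number shared their deviation from the group mean for some members and not for others. In replicate 3, lin28a.L deviated by -0.62 on the log2 scale in wild type and by -0.63 in the morphant. In replicate 1, trim71.S deviated by -0.29 and -0.33. By contrast, lin28b.L deviated by 0.22 and -0.04 in replicate 3, and lin28a.S by -0.06 and 0.35 in replicate 1.

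Without a block, edgeR called 0 of the 5 members, as it called 0% of all genes tested. The lowest adjusted p over all genes was 0.06, 1238 genes had an unadjusted p under 0.05, and DESeq2 called 437. Of the members, 2 had an unadjusted p under 0.05, and DESeq2 without a block called the same 2, lin28a.L and lin28a.S. edgeR with all 9 libraries in 1 fit called lin28a.L lower, among 26 genes. The replicate numbers paired the stage 9 libraries. In the fit with replicate numbers as blocks, 3 of the 5 members were called lower (lin28a.L, lin28a.S and trim71.S) and 0 higher, beside 6.71% and 5.75% of all genes called lower and higher. In the blocked fit, lin28a.L stood at -3.17 (SE 0.21), lin28a.S at -1.74 (SE 0.29) and trim71.S at -0.37 (SE 0.10). trim71.S was not called without pair 1 or without pair 3, while the lin28a copies were called whichever pair was left out. In TMM-scaled CPM, morphant and wild-type values did not overlap for 2 members lower in the morphants, the lin28a copies, and for 1 higher, lin28b.L, beside 5.36% and 4.82% of all genes. Since the lower lin28a counts were known when the genes were chosen, nothing is read from these calls and counts. The same holds for the calls with a pair left out.

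Markers of some other fates moved with this comparison. The 12 rows of the neural plate border list summed to between 314 and 375 CPM in wild type and between 114 and 157 CPM in the morphants, and 8 and 7 of them had a mean of at least 1 CPM. The 22 rows of mesoderm and endoderm summed to between 142 and 254 CPM in wild type and between 275 and 359 CPM in the morphants, with 8 and 11 rows at a mean of at least 1 CPM. The neural list overlapped, at between 8.41 and 8.84 CPM in wild type and between 6.19 and 10.6 CPM in the morphants. The epidermal list summed to between 498 and 570 CPM and between 569 and 648 CPM. With the block, 4 of the 10 tested border rows were called lower and 0 higher. Of 14 tested rows of mesoderm and endoderm, 9 were called higher and 2 lower. Of 10 tested epidermal rows, 4 were called higher and 0 lower, and of 6 tested neural rows, 0 higher and 2 lower. Of all genes, 5.75% were called higher and 6.71% lower. The part of these markers in the lower lin28a values was not tested.

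The comparison of NPB with wild type set explants at the border stage beside blastula explants. lin28a.L was higher in NPB by a log2 fold change of 5.66 (SE 0.36), or 50.7-fold. lin28a.S was higher by 3.56 (SE 0.22), or 11.8-fold, and trim71.S by 3.68 (SE 0.21), or 12.8-fold. In each of these rows the lowest NPB library was above the highest wild-type library. lin28b.S was lower by -1.58 (SE 0.29), or 2.98-fold. lin28b.L had 0.56 (SE 0.27) and was not called. Of the lin28 rows, both copies of lin28a were higher in NPB, lin28b.S was lower and lin28b.L was not called in either direction. The provisional trim71 row was higher by 1.52 (SE 0.27), or 2.87-fold.

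Of the 5 members, 3 were called higher and 1 lower in NPB, beside 26.9% and 26.7% of all 21981 genes tested. In TMM-scaled CPM, the groups did not overlap for 4 members higher and 1 lower, beside 31.5% and 32.5% of all genes. Most genes tested were called in this comparison, so the members' calls did not set them apart. By the size of the change, lin28a.L ranked 432nd from the highest. The same 4 members were called under every alternative that kept the rows apart. Under scaling by library totals alone, the middle log2 fold change over all genes moved from -0.04 to -0.72. The values then were 4.99 for lin28a.L, 2.87 for lin28a.S, 3.0002 for trim71.S and -2.25 for lin28b.S. lin28b.L then had -0.14, so that its sign depended on the scaling, while the 4 called members kept theirs.

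**Figure D3:**
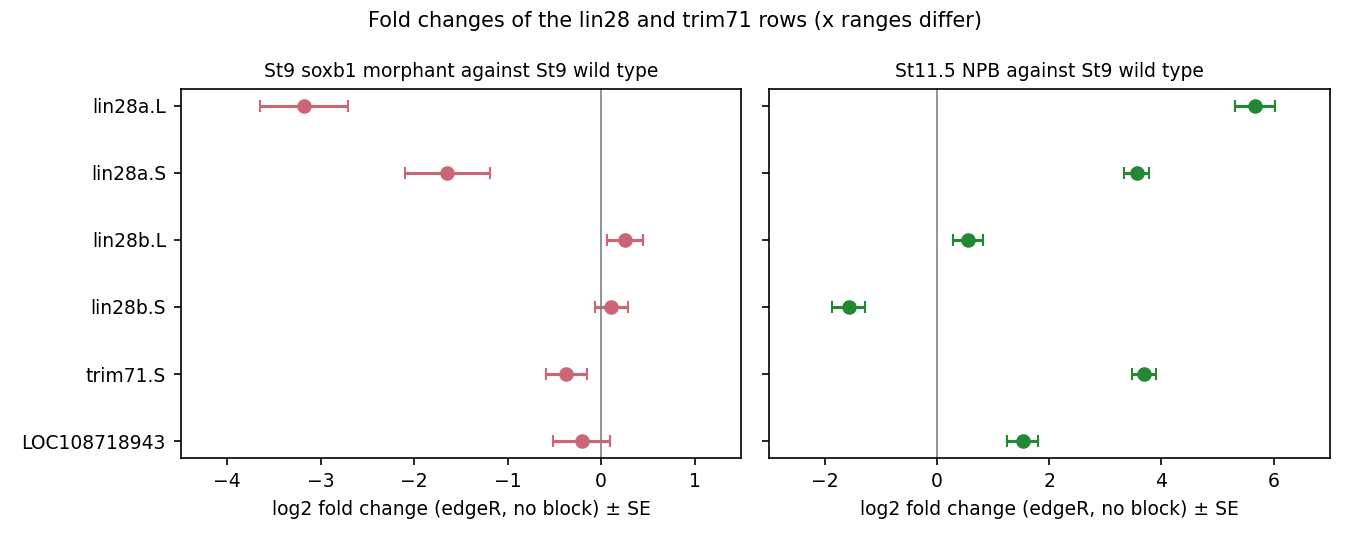
Log2 fold changes of the 5 members and the provisional trim71 row in morphants and in NPB against St9 wild type, where bars are the SE of the edgeR fit without a block and the ranges of the x axes differ. lin28a.L has the widest change in both comparisons, -3.18 and 5.66, while lin28b.S has 0.11 and -1.58.

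Markers moved with this comparison as well. The neural plate border list summed to between 1607 and 2569 CPM in NPB, with 12 of 12 rows at a mean of at least 1 CPM. The 12 rows of the neural list summed to between 8.41 and 8.84 CPM in wild type, with 4 of them at a mean of at least 1 CPM, and to between 131 and 341 CPM in NPB, with 6. The 12 rows of the epidermal list summed to between 498 and 570 CPM in wild type and between 246 and 355 CPM in NPB, and 8 and 9 of them had a mean of at least 1 CPM. foxi2 alone, an ectodermal gene of this list, summed to between 325 and 454 CPM in wild type and between 1.30 and 6.29 CPM in NPB. Of the 10 tested rows of the list, 5 were called higher in NPB and 2 lower, with a median log2 fold change of 1.15. The mesoderm and endoderm list summed to between 295 and 563 CPM in NPB, with 7 of 22 rows at a mean of at least 1 CPM, although 8 of the 13 tested were called lower and 2 higher, with a median log2 fold change of -3.05. Their part in the lin28 and trim71 values was not tested.

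Across the 9 libraries, log2 CPM of lin28a.L and lin28a.S had a Pearson r of 0.99, and lin28a.L and trim71.S of 0.95. lin28b.S had -0.90 with lin28a.L and -0.93 with trim71.S. These 9 points form 3 groups and share libraries, depth and scaling, so the values describe the order of the groups and carry no test. By the same measure, the 5 genes most like lin28a.L of 23154 were robo3.S (0.996), an axon guidance receptor gene, anxa7.S, the provisional znf608 and rnf225 rows and pnhd.S. For lin28a.S they included htra1.S (0.996), which encodes a secreted protease, ppp2r2a.S, plekhg3.L and robo3.S. For trim71.S they were nek2.S (0.996), a mitotic kinase gene, kansl2.L, axin2.S (0.995), a gene of the Wnt pathway, rbm5.L and pkdcc.1.L. For lin28b.S they were btg5.1.S (0.998), aldh2.L, c12orf66.L and the provisional znf182 and lnx2 rows. The genes most like lin28b.L were led by tnnc1.S (0.963), followed by atp8b2-like.L, cd81.L, LOC100496975.S and LOC108700086, and 0 of these 5 stayed among the most alike under scaling by library totals. Under that scaling 4 of 5 stayed for lin28a.L, without anxa7.S, and 4 of 5 for lin28a.S, while 3 of 5 stayed for lin28b.S and 3 of 5 for trim71.S, which lost nek2.S and pkdcc.1.L.

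The other genes of the pathway were taken from 6 lists by role. Of their 116 genes tested in morphants, edgeR without a block called 0, with 14 at an unadjusted p under 0.05, and DESeq2 called 6. Over all 21659 genes tested, these counts were 0, 1238 and 437. With the replicate block, 12 of the 116 were higher and 14 lower, beside 5.75% and 6.71% of all genes. The list of pluripotency factors, with 27 tested rows, held 6 of these higher calls and 8 of the lower ones. Among its higher calls were the rows of sox2.L, a target of the morpholinos. The pooled counts therefore do not describe the other lists. Over the 116, the median log2 fold change was -0.05 in the blocked fit, beside 0.01 for all genes. In NPB, 39 of 118 were called higher and 27 lower, beside 26.9% and 26.7% of all genes, with a median of 0.20 beside -0.04 for all genes. Counts of the single lists stand beside these same shares of all genes. Under scaling by library totals, 27 of the 118 were called higher in NPB and 49 lower, beside 3637 and 9732 of all 21981 genes tested. The lists were drawn up from textbook knowledge of the pathway, but with earlier results of these data known.

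Genes that make, load, uridylate or degrade microRNAs were 35 of those tested. In NPB, 8 were called higher and 10 lower, with a median log2 fold change of -0.09. tut4.S, a copy of the gene for the uridylyltransferase that Lin28a recruits in mammals, fell from 36.2, 29.1 and 54.3 CPM in wild type to 1.65, 4.31 and 4.55 CPM in NPB (-2.85, SE 0.41, adjusted p 0.000724). tut4.L had 115 ± 2.29 CPM in wild type beside 69.4 ± 7.81 CPM in NPB, and its log2 fold change was -0.03 (SE 0.17, adjusted p 0.914). tnrc6c.L, which encodes a partner of Argonaute in silencing, fell by 2.58 on the log2 scale (SE 0.55, adjusted p 0.00481). ago2.L, the Argonaute that loads microRNAs and can slice targets, rose from 4.30, 5.75 and 6.58 CPM to 27.1, 25.3 and 21.6 CPM (2.86, SE 0.28, adjusted p 0.000136). ddx5.L, an RNA helicase of primary microRNA processing, rose by 1.68 (SE 0.14, adjusted p 6.90e-05). drosha.S, a copy of the gene for the nuclease that cuts primary microRNAs, fell by 2.37 on the log2 scale (SE 0.25, adjusted p 0.000188). dis3l2.L, a copy of the gene for the exonuclease that degrades uridylated let-7 precursors, had -0.01 (SE 0.17, adjusted p 0.98). tut4.L, drosha.S and dis3l2.L were named for their place beside Lin28 after their values were seen.

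In the morphants, 2 genes of that list were called higher and 5 lower with the block, with a median of -0.05. tarbp2.S, which encodes a partner of Dicer, fell from 80.7 ± 20.2 to 61.6 ± 15.9 CPM (-0.40, SE 0.07, adjusted p 0.00169 with the replicate block) and was called whichever pair was left out. tnrc6b.S fell by 0.39 on the log2 scale (SE 0.09, adjusted p 0.00932), but not past the threshold without pair 1 (0.0797). xrn2.L, a nuclear exonuclease gene, was higher by 0.33 (SE 0.07, adjusted p 0.00878), but not without pair 1 (0.102) or pair 2 (0.0989). ago2.L had 0.38 (SE 0.14, adjusted p 0.098). Of the genes named after their values were seen, drosha.S was called lower with the block (-0.37, SE 0.07, adjusted p 0.00295). tut4.L, tut7.S, tut7.L and dis3l2.L were not called. None of the named genes of this list changed by more than 0.40 on the log2 scale in the morphants.

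Genes known in human or mouse cells as let-7 targets were 31 of those tested, with 11 called higher and 5 lower in NPB and a median of 0.29. A pair of rows named nr6a1.L, a nuclear receptor gene, led the higher ones. The row gene29696 had 14, 13 and 17 counts in wild type and 3566, 772 and 2042 in NPB (7.46, SE 0.67, adjusted p 0.000125). The row gene47438 had 3, 2 and 0 counts in wild type, at or under the floor, and 2304, 436 and 1208 in NPB, and no fold is given for it. Reads may have been split between these rows, which share a name. bach1.L, a transcription factor gene, fell by 2.29 on the log2 scale (SE 0.30, adjusted p 0.000476), and cdc25a.L, a cell cycle phosphatase gene, fell by 2.14 (SE 0.27, adjusted p 0.000377). In the morphants the list had 1 gene higher and 1 lower with the block, and a median of -0.05. myc.L fell by 0.64 on the log2 scale (SE 0.17, adjusted p 0.0231 with the block), but not past the threshold without pair 3 (0.165). cdc25a.S was higher by 0.39 (SE 0.11, adjusted p 0.0416), but not without pair 1 (0.337) or pair 2 (0.242). ccnd1.S, for cyclin D1, had -0.79 (SE 0.27, adjusted p 0.0891), and mycn.S had 0.33 (SE 0.32, adjusted p 0.586).

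Genes known in mammals as Trim71 targets, several of them inhibitors of the cell cycle, were 9 tested in NPB, with 5 called higher, 2 lower and a median of 2.16. rbl1.L, a relative of the retinoblastoma gene, rose from 14.4, 12.0 and 11.5 CPM to 131, 104 and 98.4 CPM (3.85, SE 0.24, adjusted p 3.20e-05). cdkn1a.S, a copy of the gene for the inhibitor p21, had 7, 7 and 4 counts in wild type and 35, 19 and 151 in NPB (3.50, SE 0.75, adjusted p 0.00471). The other copy, cdkn1a.L, had 0.732, 3.97 and 11.5 CPM in NPB, which overlapped with wild type. egr1.L, an immediate early transcription factor gene, fell by 3.24 on the log2 scale (SE 0.80, adjusted p 0.0103), and egr1.S fell by 2.54 (SE 0.64, adjusted p 0.0104). The NPB counts of egr1.L were 2, 39 and 44, where the count of 2 lay under the floor, so the size of its fold is uncertain. In the morphants 8 were tested, with 3 called higher and 0 lower with the block and a median of 0.44. cdkn1a.L rose from 2.52, 1.99 and 1.12 CPM to 14.0, 10.7 and 5.69 CPM (2.42, SE 0.15, adjusted p 9.49e-08 with the block). e2f7.S, for a repressor of the E2F family, rose from 92.4, 75.4 and 73.2 CPM to 137, 126 and 137 CPM (0.74, SE 0.08, adjusted p 1.06e-05 with the block). Both were called when any of the pairs was left out, and for both the morphant values lay above all wild-type values. cdkn1a.S had 7, 7 and 4 counts in wild type and 8, 8 and 10 in the morphants. egr1.S had -0.73 (SE 0.23, adjusted p 0.081) and egr1.L had -0.39 (SE 0.18, adjusted p 0.199).

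Of 10 tested genes whose proteins share the cold shock domain with Lin28, 3 were called higher and 3 lower in NPB. ybx1.S, for the abundant RNA-binding protein Ybx1, rose from 847 ± 49.7 to 3195 ± 281 CPM (2.62, SE 0.16, adjusted p 3.02e-05), and ybx1.L by 2.23 (SE 0.18, adjusted p 6.18e-05). csdc2.L fell by 2.30 on the log2 scale (SE 0.50, adjusted p 0.00499) and ybx2.L, for a germ cell relative of Ybx1, fell by 1.38 (SE 0.22, adjusted p 0.00131). In the morphants 0 of the 10 were called with the block. Of the named ones, ybx2.S had -0.14 (SE 0.07, adjusted p 0.284), ybx2.L -0.10 (SE 0.08) and carhsp1.L 0.16 (SE 0.15).

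Of 5 tested genes whose proteins share the NHL repeats with Trim71, 0 were called higher and 3 lower in NPB. trim2.L, a ubiquitin ligase gene, fell from 46.4, 46.6 and 68.2 CPM to 0.461, 1.07 and 2.42 CPM (-4.67, SE 0.53, adjusted p 0.000287), the opposite direction to trim71.S. trim3.L fell from 21.7 ± 4.28 to 6.79 ± 1.55 CPM (-0.999 with TMM scaling, SE 0.27, adjusted p 0.0133), and trim3.S had -0.46 (SE 0.28, adjusted p 0.193). In the morphants 0 of the 5 were called with the block, and trim3.L had -0.21 (SE 0.11), trim2.L -0.07 (SE 0.09) and trim3.S -0.06 (SE 0.11).

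Transcription factors linked to pluripotency were 28 tested in NPB, with 12 called higher, 4 lower and a median of 0.76. They moved in both directions. pou5f3.3.L, a relative of mammalian Oct4, fell from 903, 960 and 1047 CPM to 5.45, 13.8 and 27.5 CPM (-5.31, SE 0.53, adjusted p 0.000224), and pou5f3.3.S fell by 4.98 on the log2 scale (SE 0.57, adjusted p 0.000377). pou5f3.1.L, of the same family, rose from 33.7, 28.2 and 53.7 CPM to 357, 445 and 460 CPM (4.13, SE 0.27, adjusted p 3.37e-05). prdm14.L rose from 0.593 ± 0.110 to 10.9 ± 1.72 CPM (4.88, SE 0.33, adjusted p 3.95e-05). The direction of lin28a and trim71.S in NPB was that of pou5f3.1.L and prdm14.L, and the direction of lin28b.S was that of pou5f3.3. These genes were named as the highest and lowest changes of the list. Any changed member therefore shares a direction with some of them, and nothing is read from it. In the morphants 27 were tested, with 6 called higher and 8 lower with the block. ventx1.2.S, a homeobox gene, fell from 9.42, 9.55 and 3.48 CPM to 1.67, 1.99 and 0.592 CPM (-2.41, SE 0.18, adjusted p 3.23e-07 with the block) and was called whichever pair was left out. ventx1.2.L fell by 2.41 (SE 0.54, adjusted p 0.0329), but not past the threshold without pair 2 (0.154). It had 70, 115 and 38 counts in wild type and 2, 28 and 17 in the morphants, where the count of 2 lay under the floor. The rows named sox2.L, whose translation the morpholinos block, rose by 1.09 (gene41682, SE 0.14, adjusted p 9.33e-05) and 1.16 (gene45195, SE 0.18, adjusted p 0.0107), the latter not without pair 3 (0.182). The morpholinos act on translation, so these levels do not check the knockdown.

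**Figure D4:**
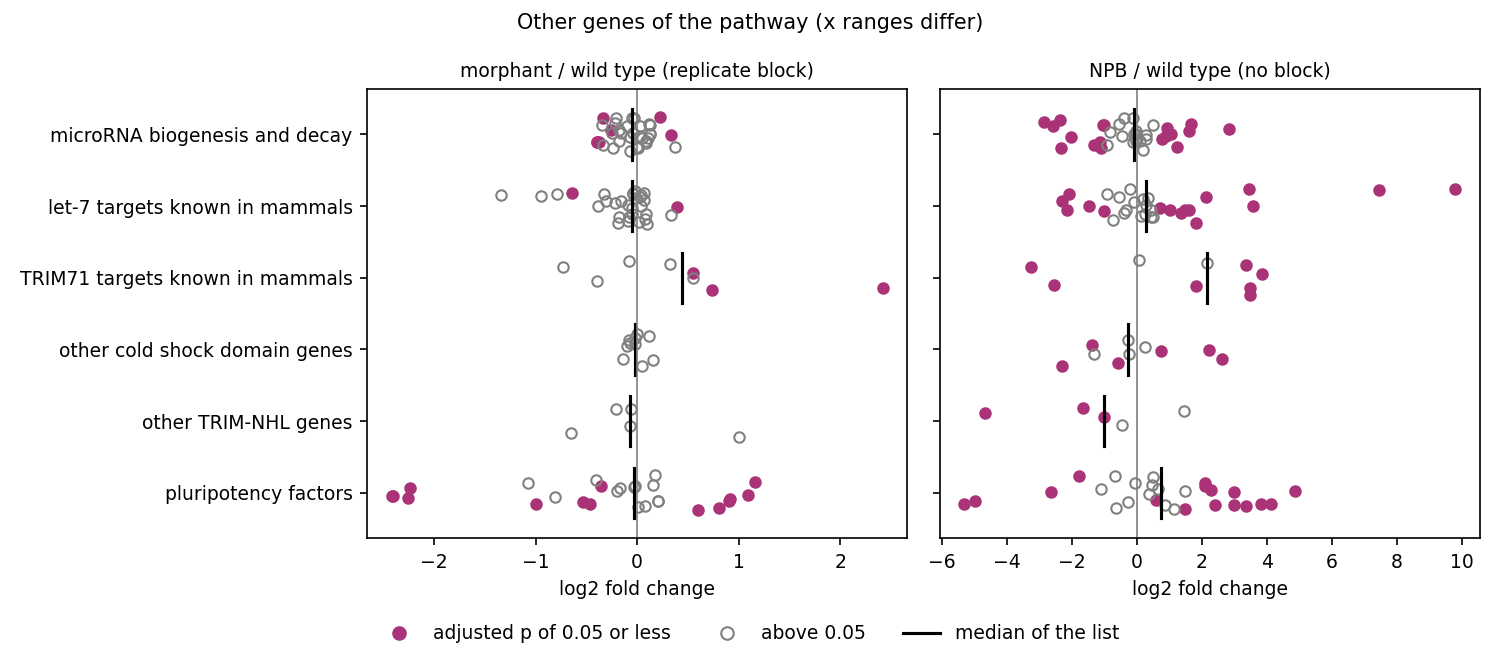
Log2 fold changes of the genes of 6 role lists, in morphants against wild type with the replicate block and in NPB against wild type without a block, where points are genes, filled at an adjusted p of 0.05 or less, and bars are list medians; the ranges of the x axes differ. In morphants 12 of 116 tested genes are called higher and 14 lower, beside 5.75% and 6.71% of all genes. The medians of Trim71 targets are 0.44 in morphants, from 8 rows, and 2.16 in NPB, from 9. Those of the other lists lie between -0.07 and -0.02 in morphants and between -0.999 and 0.76 in NPB.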

How the data were processed

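RNA of animal pole explants was sequenced in 9 directional libraries. The authors trimmed reads with fastp, mapped them with STAR to genome version 9.2 and deposited HTSeq counts per gene, not normalized, with the stage 9 and the NPB libraries in separate tables. TPM values, corrected for length by RSEM, were deposited for NPB alone. Versions, annotation and strand setting are not given in the sources used here. A deposited table of the authors' own fold changes and p-values was not used. The members and gene lists were chosen with earlier results of these data known. Other genes are named by rule: in each list and comparison the 2 highest and 2 lowest log2 fold changes of the fit without a block, among tested genes with a mean of at least 1 CPM in a group, and the 5 genes most alike to each member. Some genes that this rule names are not reported here.

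Each comparison of 2 groups used the robust quasi-likelihood F test of edgeR 4.0.16 (R 4.3.3) after filterByExpr and TMM on the counts, without a covariate. P-values were adjusted by Benjamini-Hochberg across all tested genes. The SE, approximate, was taken from the fold change and F. log2 CPM used a prior count of 2. Alternatives were DESeq2 1.42.0, RLE scaling, scaling by library totals, other count filters (1 count in all libraries together, or 10 in every library), summed L and S counts, all 9 libraries in 1 fit, each library left out, and the replicate number as a block. The numbers were taken to pair the stage 9 libraries, because deviations from the group mean correlated at 0.868, 0.855 and 0.855 for equal numbers. Unequal numbers gave between -0.48 and -0.378. Given the values for equal numbers, these negative ones follow from centring each gene on its group mean and add no support. What a number marks is not in the labels. Other settings of the blocked fit were added after seeing the data. Libraries of a group differed beyond sampling noise (chi-square per gene of 44.7 to 110), so each counted as 1 replicate. The edgeR step was tested on simulated data. For the fit without a block these data held no replicate effect, unlike the stage 9 libraries.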

Additional observations from a re-analysis of the deposited data

How the results depend on the processing

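In morphants, 99 of 100 member values under the alternatives moved by less than 1 SD. The other was lin28a.L, at -2.04 when L and S counts were summed, and 1 value changed sign, lin28b.S at -0.01. In NPB, 85 of 100 stayed within 1 SD. The genes called in morphants, 0 without a block, were 437 by DESeq2, 6 with summed L and S counts, 26 with all 9 libraries in 1 fit, 16 with all genes of at least 1 count, 9 with at least 10 counts in every library and 2699 with the replicate block. They were between 0 and 1 when a library was left out, and between 1503 and 2611 when a pair was left out of the blocked fit. Pathway genes called in morphants were 6 by DESeq2 and 26 with the replicate block, and between 17 and 27 when a pair was left out of it. With summed counts, 39 pathway genes were called in NPB, since fewer genes were then tested. Summed L and S counts gave 4.66 for lin28a and -0.54 for lin28b in NPB. Under scaling by library totals, NPB values were 4.99 for lin28a.L, 2.87 for lin28a.S, -0.14 for lin28b.L, -2.25 for lin28b.S and 3.0002 for trim71.S. With library totals and the replicate block they were 4.999, 2.86, -0.14, -2.31 and 2.998. Over the fits that left out a library or a pair, lin28a.S in NPB ran from 3.33 to 3.73. Scaling by library totals alone took calls in NPB from 50.2% higher to 27.2% higher of all calls, at 3637 higher and 9732 lower. The cause was not tested. NPB and wild-type libraries of the same number correlated at between -0.0574 and -0.011 and were not taken as paired. Blocked, that comparison had 5328 genes called higher and 5176 lower, 39 and 26 of them in the pathway, and no member call changed. The lowest member counts, 14 to 35 for lin28a.L in morphants, limit its precision most. Separate levels of L and S copies depend on how shared reads were counted.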
